A study of Homo sapiens with 32 samples.

Results

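The 6 genes described here, PIM1, PIM2, CISH, SOCS2, SOCS3 and OSM, are direct targets of the transcription factor STAT5. They were found by symbol among the array features that carried 1 gene symbol, which gave 7 features of 53617, since SOCS3 had 2. All 6 genes were among the 14884 genes measured by a named feature. STAT5 is phosphorylated by JAK kinases at cytokine receptors, and in chronic myeloid leukemia cells also downstream of the fusion kinase that joins BCR to a tyrosine kinase gene. Phosphorylated STAT5 enters the nucleus, binds a short palindromic DNA motif and raises transcription of survival kinases such as PIM1 and PIM2. It also induces CISH and the SOCS genes, whose proteins bind activated receptors or JAK kinases and dampen the signal, so these genes are commonly read as a measure of STAT5 output.

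All samples were K-562, an established human chronic myeloid leukemia line, studied to compare drug-naive cells with cells resistant to imatinib or nilotinib, which both inhibit the fusion kinase. The 32 arrays form 4 groups of 8: naive cells, cells resistant to 0.5 µM imatinib (low-imatinib), cells resistant to 2 µM imatinib (high-imatinib) and cells resistant to 0.1 µM nilotinib. Resistance was reached by stepwise increases of drug. For each resistance there are 2 lines, given as biological replicates, and 4 technical arrays of each line. The naive arrays carry the letters S and K, which the labels do not explain and which were counted as 2 naive sets. No genetic alteration was made and no host or other cell type was involved. All groups share 1 description of the medium, given as without imatinib or nilotinib, and the labels leave unclear if the resistant cells were harvested under drug. Each line is 1 culture, and the labels do not say whether it is 1 clone.

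Values are log2 intensities, the base being inferred from their range of 1.24 to 14.2, so a difference of 1 is a doubling. Arrays of the same set correlated across genes at r between 0.952 and 0.991, and array medians lay between 5.85 and 6.11. Of 14 genes fixed as marks of K-562 cells, 4 were measured (KLF1, GATA1, TAL1 and EPOR), and their mean level ran from 7.62 to 8.63 over the sets. Of 15 markers of other cells, 6 were measured, with mean levels from 6.08 in nilotinib line 1 to 6.94 in nilotinib line 2, and CD14, MPO and PECAM1 lay among the dimmest 40% of genes by mean over the arrays. A technical axis, the main direction in which arrays of the same RNA source differ, was not level over the groups. Its score was -20.8 for naive S and -25.1 for naive K, between -2.13 and 6.09 in the imatinib lines, and at 21.2 and 12.3 in nilotinib lines 1 and 2. Taking the axis out therefore also removes any real difference between groups that lies along it. As in any bulk sample, fewer cells that express a gene and less RNA per cell cannot be told apart.

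PIM1, a serine/threonine kinase that promotes survival and cell cycle entry, was lower in every resistant line than in both naive sets. Its arrays read 10.70, 10.44, 10.83 and 10.41 in naive S and 10.20, 10.44, 10.51 and 10.25 in naive K. Low-imatinib line 1 gave 8.26, 8.41, 8.44 and 8.16, and line 2 gave 7.59, 7.52, 7.31 and 7.61. These 8 arrays lay well below all 8 naive arrays, and the lines did not overlap each other. High-imatinib line 1 gave 8.28, 8.19, 8.38 and 8.21, and line 2 gave 8.09, 7.84, 7.87 and 8.07. Nilotinib line 1 gave 9.67, 9.95, 9.64 and 9.83, which is just below the naive range. Nilotinib line 2 gave 6.82, 6.82, 6.96 and 6.64, the lowest PIM1 values of all sets.

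Set against the mean of the naive sets, PIM1 was 4.45-fold and 7.81-fold lower in low-imatinib lines 1 and 2. It was 4.62-fold and 5.69-fold lower in the high-imatinib lines. The nilotinib lines stood apart from each other, at 1.62-fold and 12.7-fold lower. In the order of set means, 2 of 7 pairs of neighbours had overlapping arrays, naive S with naive K and low-imatinib line 1 with high-imatinib line 1. The set means spanned 3.78 on the log2 scale, a 13.8-fold range.

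**Figure D1:**
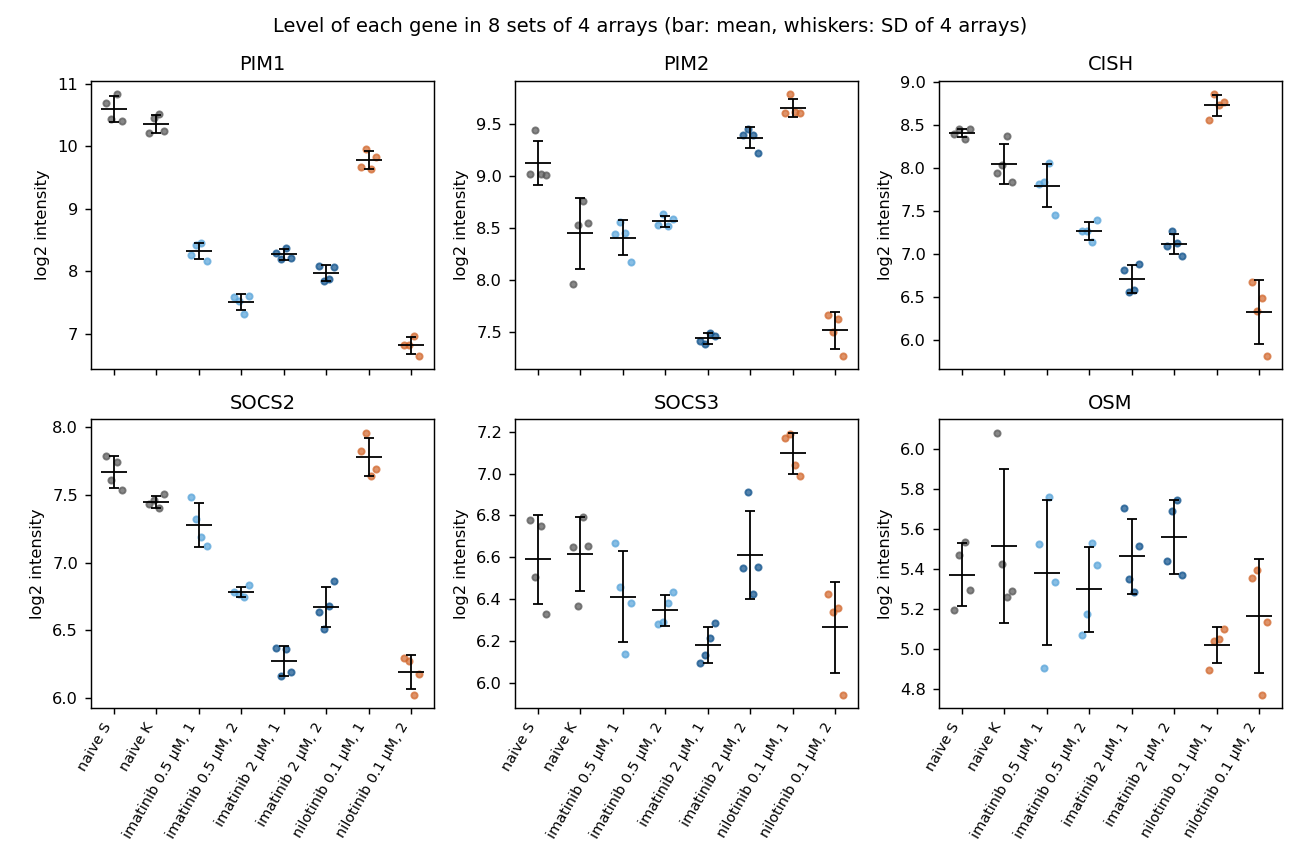
Log2 intensity of the 6 genes (1 panel each) in the 8 sets; points are the 4 arrays of a set, the bar is their mean and whiskers are the SD. PIM1 is lower in all 6 resistant lines than in the naive sets, while CISH, SOCS2, PIM2 and SOCS3 are highest in nilotinib line 1 and OSM varies little.

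Over all 6 lines PIM1 stood at -2.37 ± 0.68 against naive (standard error from limma, n = 6 lines against 2 naive sets, 95% interval -3.98 to -0.75), which did not pass the threshold of 0.05 (adjusted p = 0.0852). By size this was the 5th lowest difference of 14884 genes. All 6 lines lay below both naive sets for PIM1 alone among the 6 genes, a pattern held by 15.9% of all genes. None of the 6 genes passed in this comparison by limma, in which 3.72% of genes did, and PIM1 was the 1 with an unadjusted p under 0.05, a level that 29.8% of all genes reached. The error holds the gap between the nilotinib lines: PIM1 stood at -2.86 without nilotinib line 1 and at -1.87 without nilotinib line 2.

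Each resistance taken alone gave a PIM1 mean below naive, with the nilotinib mean made of lines far apart. The low-imatinib lines stood at -2.56 ± 0.84 (n = 2 lines against 2 naive sets, adjusted p = 0.162), the high-imatinib lines at -2.36 ± 0.84 (adjusted p = 0.269) and the nilotinib lines at -2.18 ± 0.84 (adjusted p = 0.134). The nilotinib value was -3.66 without line 1 (12.7-fold lower) and -0.70 without line 2 (1.62-fold lower). In these comparisons the 6 genes gave 0 calls by limma, against 0% of all genes for low imatinib, 0% for high imatinib and 0.443% for nilotinib. At an unadjusted p under 0.05 there was 1 of the 6 in each imatinib comparison, PIM1, and there were 2 with nilotinib, PIM1 and OSM; of all genes, 21.6% (low imatinib), 15.2% (high imatinib) and 31.9% (nilotinib) reached that level. With the low-imatinib and naive sets alone in the limma fit, PIM1 passed (-2.56, adjusted p = 0.00177). It did not pass in the like fits of the high-imatinib or the nilotinib sets with the naive sets alone. The share of all genes called in these smaller fits is not given here, so this PIM1 call has no background beside it. PIM1 passed in all 4 comparisons with naive cells when limma was fitted to the 32 arrays with the set as a random block (adjusted p from 1.86e-06 to 1.66e-04). That fit takes the 4 technical arrays of a culture as partly independent (1 correlation of 0.435 within sets for all genes), so part of its replication is technical, and its calls over all genes were 3660 in place of 553 for all lines.

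PIM2, a kinase related to PIM1 with overlapping substrates, did not follow PIM1. Its arrays read 9.02, 9.44, 9.02 and 9.01 in naive S and 7.96, 8.52, 8.76 and 8.55 in naive K, so the naive sets themselves differed (K minus S -0.67 ± 0.12, n = 4 arrays each, limma adjusted p = 6.68e-04 over technical arrays). It was the only one of the 6 genes to do so, while 12.4% of all genes did in either direction. The low-imatinib lines gave 8.45, 8.56, 8.45 and 8.17, and 8.53, 8.63, 8.52 and 8.58, both within the naive range. High-imatinib line 1 gave 7.41, 7.38, 7.49 and 7.46, and line 2 gave 9.39, 9.46, 9.40 and 9.22. One line of this resistance therefore lay below all naive arrays and the other near the top of them.

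The nilotinib lines split PIM2 the other way. Line 1 gave 9.61, 9.79, 9.62 and 9.60, above every naive array, and line 2 gave 7.66, 7.50, 7.63 and 7.27, below every one. With the technical axis taken out, line 1 stood 0.31 above the naive mean in place of 0.87, level with naive S, and line 2 stood at -1.72. Over all 6 lines PIM2 stood at -0.30 ± 0.65 against naive (95% interval -1.85 to 1.25, adjusted p = 0.769). The low-imatinib, high-imatinib and nilotinib differences were -0.30 ± 0.80, -0.38 ± 0.80 and -0.20 ± 0.80, with adjusted p = 0.840, adjusted p = 0.830 and adjusted p = 0.868. The high-imatinib and nilotinib values each average 1 line above the naive mean and 1 below it, and the difference over all lines turned when naive S, high-imatinib line 1 or nilotinib line 2 was left out (0.04, 0.03 and 0.06).

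CISH encodes an SH2 domain protein that docks on activated cytokine receptors, and it is a classical STAT5 target. RefSeq promoter windows (GRCh38.p14, 250 bases before to 50 after the transcript start) were held for 4 of the 6 genes, PIM1, PIM2, CISH and SOCS3, in 5 windows. The CISH and PIM1 windows are shown because both genes had set means below both naive sets in the 4 imatinib lines, while their windows differ in the motif. Capitals mark matches of the STAT motif TTCNNNGAA, which reads the same on both strands.

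CISH, chr3:50611725-50612024, minus strand: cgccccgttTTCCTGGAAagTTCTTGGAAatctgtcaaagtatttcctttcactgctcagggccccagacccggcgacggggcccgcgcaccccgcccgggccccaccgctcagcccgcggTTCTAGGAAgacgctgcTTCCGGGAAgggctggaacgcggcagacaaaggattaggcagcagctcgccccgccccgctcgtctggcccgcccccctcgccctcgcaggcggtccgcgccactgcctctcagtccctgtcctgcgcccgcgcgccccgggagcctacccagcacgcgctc
PIM1, chr6:37169902-37170201, plus strand: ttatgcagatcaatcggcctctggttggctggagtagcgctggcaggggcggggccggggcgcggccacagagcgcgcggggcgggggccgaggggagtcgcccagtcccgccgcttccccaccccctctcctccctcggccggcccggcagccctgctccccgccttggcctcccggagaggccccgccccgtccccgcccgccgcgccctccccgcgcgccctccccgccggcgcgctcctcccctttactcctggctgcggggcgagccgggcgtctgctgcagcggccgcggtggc

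The CISH window held 4 matches, TTCCTGGAA, TTCTTGGAA, TTCTAGGAA and TTCCGGGAA, which begin at -241, -230, -129 and -112 from the start and do not overlap. Of 35116 promoter windows of the same length, 2689 (7.66%) held at least 1 match and 7 held 4 or more. The windows of PIM1, PIM2 and SOCS3 held 0 matches. A form of the motif with 4 free bases between its arms was in 6.44% of windows and in 0 of the 5. A match describes the letters and is not a measured binding site.

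CISH arrays read 8.40, 8.45, 8.35 and 8.45 in naive S and 7.94, 8.04, 8.38 and 7.85 in naive K. Low-imatinib line 1 gave 7.82, 7.84, 8.06 and 7.46, overlapping naive K, and line 2 gave 7.27, 7.27, 7.15 and 7.40. High-imatinib line 1 gave 6.82, 6.56, 6.59 and 6.89, and line 2 gave 7.10, 7.27, 7.13 and 6.98. The other 3 imatinib lines thus lay below all naive arrays, at 1.95-fold (low line 2), 2.87-fold (high line 1) and 2.16-fold (high line 2) below the naive mean, against 1.35-fold in low line 1. Nilotinib line 1 gave 8.56, 8.86, 8.73 and 8.77, above all naive arrays and 1.41-fold over their mean. Nilotinib line 2 gave 6.68, 6.34, 6.49 and 5.81, the lowest set, 3.73-fold below the naive mean.

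CISH stood at -0.90 ± 0.56 against naive over all 6 lines (95% interval -2.23 to 0.42, adjusted p = 0.299). The largest of the 3 resistance differences was that of high imatinib, at -1.32 ± 0.68 (adjusted p = 0.403), beside -0.70 ± 0.68 for low imatinib (adjusted p = 0.562) and -0.70 ± 0.68 for nilotinib (adjusted p = 0.478). The nilotinib value averages lines on opposite sides of naive and was 0.50 without line 2. With the technical axis taken out, nilotinib line 1 stood -0.0033 from the naive mean and line 2 at -2.30 (0.50 and -1.90 with it), so line 1 was no longer above naive and line 2 was still below it. Whether the height of line 1 is technical was not tested, since that step can also remove real differences.

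SOCS2 encodes a feedback inhibitor best known for restraining growth hormone signalling. Its arrays read 7.78, 7.61, 7.74 and 7.54 in naive S and 7.43, 7.46, 7.40 and 7.51 in naive K. Low-imatinib line 1 gave 7.48, 7.32, 7.19 and 7.12, and line 2 gave 6.79, 6.77, 6.75 and 6.83. Line 1 overlapped naive K, while line 2 lay 1.71-fold below the naive mean and clear of it. High-imatinib line 1 gave 6.37, 6.16, 6.36 and 6.19 (2.44-fold lower), and line 2 gave 6.63, 6.51, 6.68 and 6.86 (1.85-fold lower). Nilotinib line 1 gave 7.82, 7.96, 7.64 and 7.69, within reach of naive S, and line 2 gave 6.30, 6.28, 6.03 and 6.18, 2.58-fold below the naive mean.

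Against naive, SOCS2 stood at -0.73 ± 0.39 over all lines (95% interval -1.65 to 0.19, adjusted p = 0.242). High imatinib gave -1.09 ± 0.47 (adjusted p = 0.341), low imatinib -0.53 ± 0.47 (adjusted p = 0.528) and nilotinib -0.57 ± 0.47 (adjusted p = 0.408). Without nilotinib line 2 the nilotinib value was 0.22. In the same fit with the set as a random block, which counts technical arrays as partly independent, CISH and SOCS2 passed by limma over all lines (adjusted p = 0.0189 and adjusted p = 0.00587) and for high imatinib (adjusted p = 0.0108 and adjusted p = 0.00217), with the same differences. Of 14884 genes, that fit called 3660 over all lines and 1679 for high imatinib.

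Counting set means alone, both low-imatinib lines lay below both naive sets for PIM1, CISH, SOCS2 and SOCS3, 4 of the 6 genes, against 31% of all genes. Both high-imatinib lines did so for PIM1, CISH and SOCS2, 3 of 6 against 25.9%. For the nilotinib lines it was PIM1 and OSM, 2 of 6 against 34.7%, a share near the background.

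**Figure D2:**
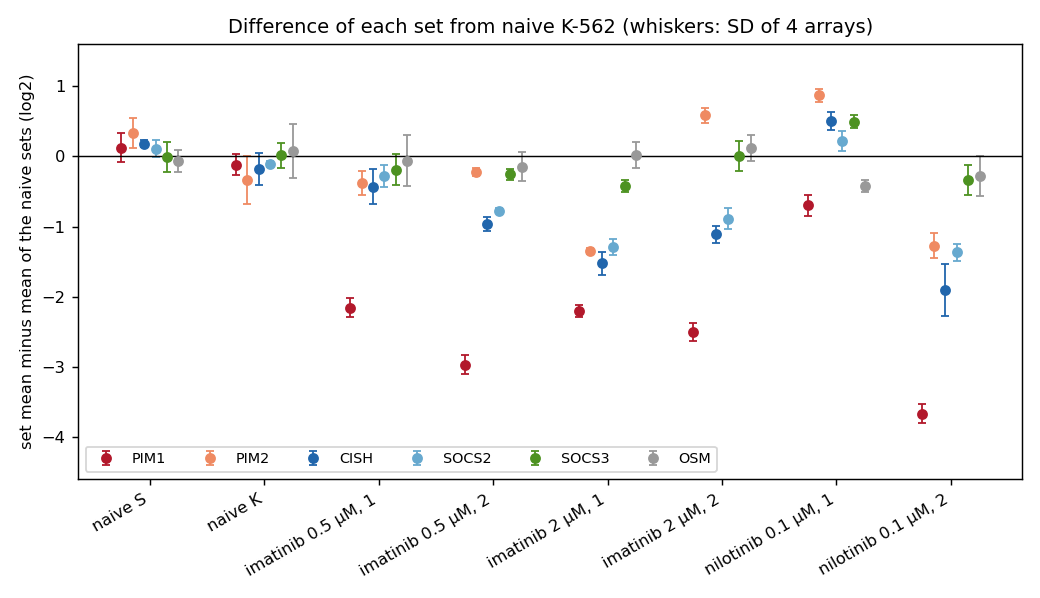
Difference of each set mean from the mean of the naive sets (log2 intensity, y axis) for the 6 genes in the 8 sets (x axis); whiskers are the SD of 4 arrays. PIM1 is the lowest of the 6 in every resistant line, at -0.70 in nilotinib line 1 and between -2.16 and -3.66 in the others. CISH and SOCS2 are both above the naive mean in nilotinib line 1 and both below it in the other resistant lines.

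SOCS3, an inhibitor of JAK kinases that is also induced through STAT3, varied less. Its brighter feature had set means of 6.59 (S) and 6.62 (K) in naive cells. Low-imatinib lines 1 and 2 gave 6.41 and 6.35, high-imatinib lines 6.18 and 6.61, and nilotinib lines 7.10 and 6.27. In the order of set means, 6 of 7 pairs of neighbours overlapped, and only nilotinib line 1, with arrays from 6.99 to 7.19, stood clear. Over all lines SOCS3 stood at -0.12 ± 0.23 against naive (95% interval -0.65 to 0.42, adjusted p = 0.732). The second SOCS3 feature was dim, with set means from 4.19 to 4.74, all neighbours overlapping, and a difference of -0.29 ± 0.16 over all lines (adjusted p = 0.291).

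OSM encodes oncostatin M, a secreted cytokine of the interleukin-6 family. Its feature was among the dimmest 40% of genes, and all 7 pairs of neighbouring sets overlapped. Set means were 5.37 (S) and 5.52 (K) in naive cells. Low-imatinib lines 1 and 2 gave 5.38 and 5.30, high-imatinib lines 5.47 and 5.56, and nilotinib lines 5.02 and 5.17. OSM stood at -0.13 ± 0.11 over all lines (95% interval -0.38 to 0.12, adjusted p = 0.421) and at -0.35 ± 0.13 in the nilotinib lines (adjusted p = 0.125). With the technical axis taken out these differences turned, to 0.19 and 0.06.

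**Figure D3:**
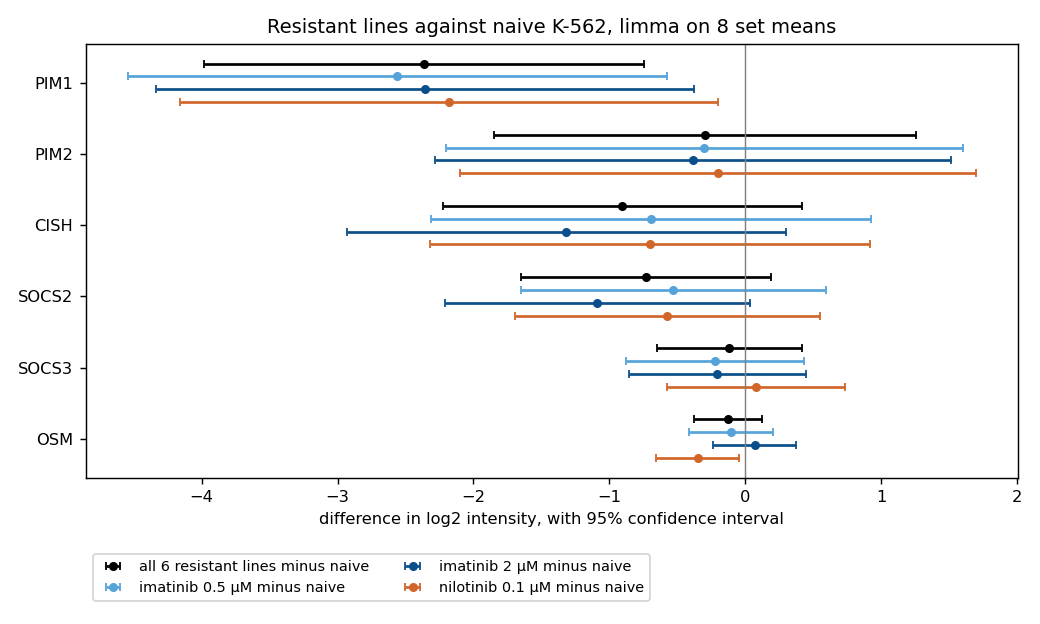
Difference in log2 intensity against naive cells (x axis) for each gene (y axis), with 95% confidence intervals from limma on 8 set means, for all 6 lines and for each resistance. The 4 PIM1 intervals lie below 0 before adjustment over all genes, as does that of OSM with nilotinib, and those of PIM2, CISH, SOCS2 and SOCS3 span 0.

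Between resistances the 6 genes gave 0 calls in 3 comparisons, as did 0% of all genes in each (high against low imatinib, nilotinib against low imatinib, nilotinib against high imatinib). At an unadjusted p under 0.05 there was 1 case, OSM in nilotinib against high imatinib, beside 4.85%, 6.91% and 6.34% of all genes in the 3 comparisons in the order given. High minus low imatinib ran from -0.62 for CISH to 0.20 for PIM1, with adjusted p of at least 0.935. Nilotinib minus low imatinib ran from -0.25 for OSM to 0.38 for PIM1, and nilotinib minus high imatinib from -0.42 for OSM to 0.62 for CISH, with adjusted p of at least 0.744. The 95% intervals of PIM1, PIM2 and CISH reached as far as -2.24 and 2.36 over the 3 comparisons, so for these 3 genes differences of several fold lie within the error. Those of SOCS2 lay between -1.68 and 1.64, those of SOCS3 lay between -0.64 and 0.95 and those of OSM between -0.73 and 0.48.

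The nilotinib lines stood far apart in these genes. These tests compare 4 technical arrays of 1 culture with 4 of another, so they measure the gap against technical spread only. PIM1 was 2.96 ± 0.11 lower on the log2 scale in line 2 than in line 1 (7.80-fold, n = 4 arrays each, limma adjusted p = 3.22e-21). CISH was lower by 2.40 ± 0.14 (adjusted p = 9.14e-16), PIM2 by 2.14 ± 0.12 (adjusted p = 1.12e-15) and SOCS2 by 1.58 ± 0.10 (adjusted p = 3.01e-15). For these 4 genes no array of line 2 reached any array of line 1.

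SOCS3 was lower by 0.83 ± 0.12 at its brighter feature (adjusted p = 1.90e-06), whereas the dim feature gave -0.08 ± 0.25. OSM gave 0.14 (adjusted p = 0.577). Thus 5 of the 6 genes were lower in line 2, against 16.1% of all genes, and 4 of 6 were lower by at least 1, against 1.90%. Their median difference was -1.86, beside 0.01 over all genes. Among 14884 genes PIM1 ranked 32nd from the lowest, CISH 49th, PIM2 62nd and SOCS2 114th.

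**Figure D4:**
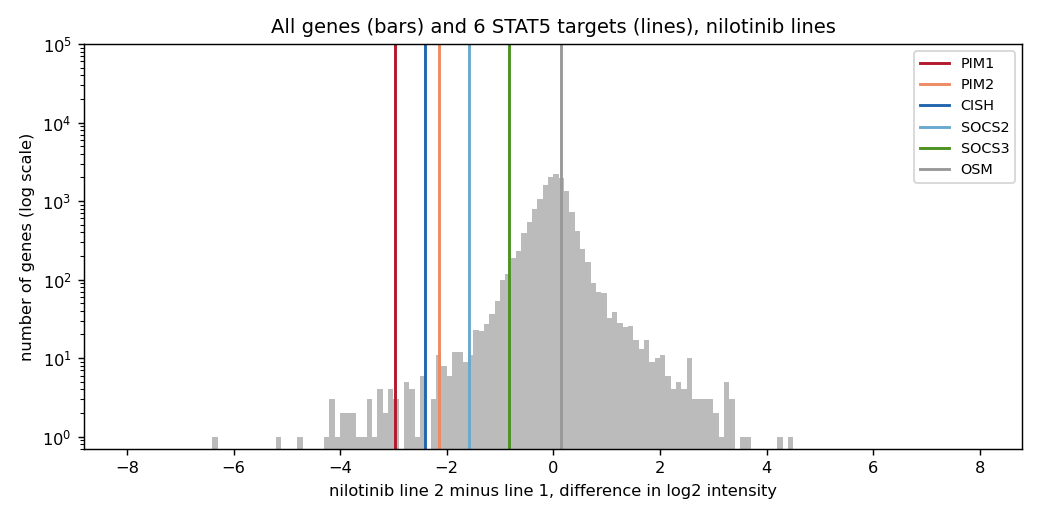
Number of genes (bars, log scale) by the difference of nilotinib line 2 minus line 1 in log2 intensity (bins of 0.1), with vertical lines at the 6 genes. PIM1, CISH, PIM2 and SOCS2 lie in the lower tail at -2.96, -2.40, -2.14 and -1.58, SOCS3 at -0.83, and OSM near the middle.

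The low-imatinib lines also differed, in 3 of the 6 genes. PIM1 was lower in line 2 by 0.81 ± 0.11 (n = 4 arrays each, limma adjusted p = 8.78e-07), CISH by 0.53 ± 0.14 (adjusted p = 0.00606) and SOCS2 by 0.49 ± 0.10 (adjusted p = 2.62e-04). Of all genes, 9.96% were lower in that line. The CISH call was lost without array 2 (-0.51, adjusted p = 0.0568) or without array 3 (-0.395, adjusted p = 0.108).

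The high-imatinib lines differed in 5 of the 6 genes in either direction, against 33% of all genes. PIM2 was 1.93 ± 0.12 higher in line 2 (adjusted p = 1.31e-14), and SOCS3 by 0.43 ± 0.12 (adjusted p = 0.00595), CISH by 0.41 ± 0.14 (adjusted p = 0.0199) and SOCS2 by 0.40 ± 0.10 (adjusted p = 0.00107). PIM1 went the other way, at -0.30 ± 0.11 (adjusted p = 0.0283). The count of 5 was 2 without array 2 (PIM2 and SOCS2) and 3 without array 3 (PIM2, SOCS2 and SOCS3). Without array 2 the differences were -0.28 for PIM1, 0.31 for CISH and 0.31 for SOCS3, and without array 3 they were -0.23 for PIM1 and 0.37 for CISH, each in the same direction as with all arrays. The second SOCS3 feature gave -0.45 ± 0.25.

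Over the 8 set means CISH and SOCS2 were nearly parallel, with Pearson r = 0.991, and r = 0.997 over the 6 sets without the nilotinib lines. These correlations describe 8 means from the same arrays and carry no test. SOCS2 was the gene most like CISH, and CISH the gene most like SOCS2, among 3498 genes whose set means span at least 1. PIM1 had r = 0.859 with CISH and 0.851 with SOCS2. PIM1 and PIM2 had r = 0.511, which was 0.190 without the nilotinib lines. Among the 6 genes, PIM2 lay nearest to SOCS3 (r = 0.861), and OSM had r between -0.21 and 0.09 with PIM1, PIM2, CISH and SOCS2.

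**Figure D5:**
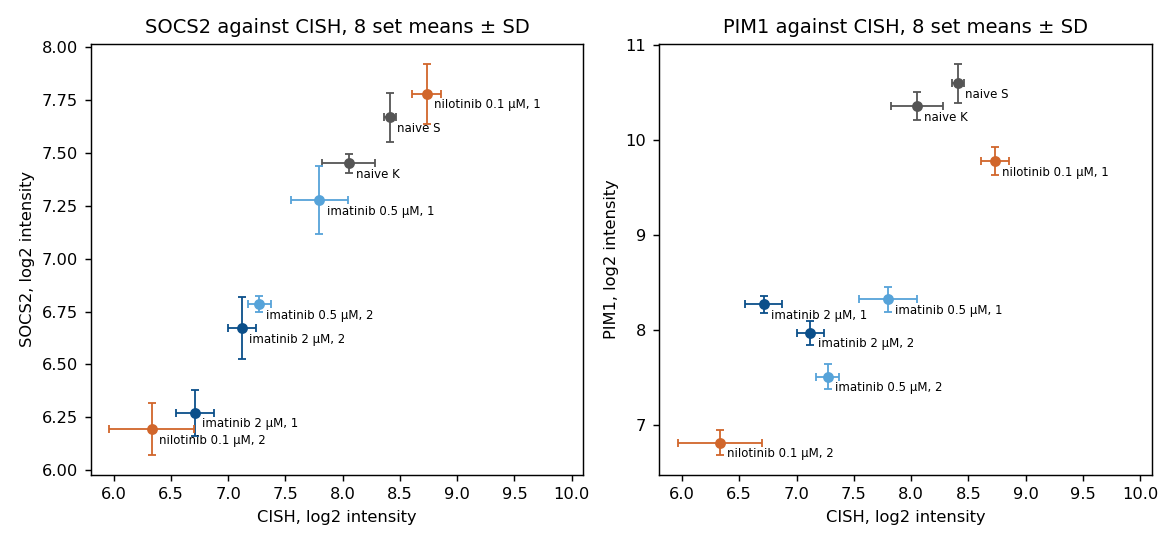
Set means of SOCS2 (left) and PIM1 (right) against CISH, in log2 intensity, with SD over 4 arrays in both directions, for the 8 sets. SOCS2 and CISH lie close to a line (r = 0.991), while PIM1 against CISH is more scattered (r = 0.859).

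Beyond the 6 genes, the profile most like CISH was that of RAB11FIP1, a regulator of vesicle recycling (r = 0.990), then SOCS2-AS1, the antisense RNA gene at SOCS2 (r = 0.976). For SOCS2 the next were RAB11FIP1 (r = 0.977) and MGC12916 (r = 0.967). For PIM1 the closest were PDE4DIP, a centrosome and Golgi scaffold (r = 0.949), GAB2, an adaptor of the fusion kinase (r = 0.942), and NMU, a neuropeptide (r = 0.927). For PIM2 they were CCND2, a D-type cyclin that STAT5 can induce (r = 0.927), GOLGA2P10, a pseudogene (r = 0.909), and IKZF4, a zinc finger transcription factor (r = 0.905). All of these genes were lower in nilotinib line 2 than in line 1, and how far the correlations rest on that gap was not tested. The genes were picked for high r over all sets, so r over part of the same sets cannot decide it. The values without the nilotinib lines are given as description only. Over the 6 sets without the nilotinib lines, r with PIM1 was 0.930 (PDE4DIP), 0.934 (GAB2) and 0.965 (NMU). For PIM2 it was 0.878 (CCND2), 0.859 (GOLGA2P10) and 0.823 (IKZF4). For the genes named with CISH and SOCS2 it lay between 0.956 (MGC12916) and 0.983 (RAB11FIP1 with CISH). Only for NMU was r higher without the nilotinib lines.

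Other STAT5 targets gave no call against naive. Of 18 listed, 11 were measured, 0 were called by limma over all lines (2 at an unadjusted p under 0.05), and their median difference was 0.11, beside -0.03 over all genes. In that comparison 3.72% of all genes were called and 29.8% had an unadjusted p under 0.05. SOCS1, another JAK inhibitor, had the largest difference at -0.82 ± 0.70 (adjusted p = 0.435), and CCND3, a D-type cyclin, the smallest adjusted p at 0.53 ± 0.19 (adjusted p = 0.126). Between the nilotinib lines 5 of the 11 were lower and 1 higher in line 2, against 16.1% and 11.5% of all genes. SOCS1 read 8.98 in line 1 and 6.001 in line 2, CCND2 8.77 and 5.51, and the repressor BCL6 7.22 and 5.34 (BCL6 was picked after its values were seen).

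The transcription factors themselves differed from their targets. STAT5B had set means between 7.91 and 8.35, with 0.08 ± 0.10 over all lines (adjusted p = 0.610). STAT5A read 8.59 (S) and 8.35 (K) in naive cells. It read 7.78 and 8.09 in low-imatinib lines 1 and 2, 8.61 and 6.68 in their high-imatinib counterparts, and 7.14 and 9.03 with nilotinib. STAT5A was thus 1.89 ± 0.15 higher in nilotinib line 2, the set with the lowest PIM1, CISH and SOCS2 means (limma adjusted p = 2.76e-12). JAK2, a kinase that activates STAT5, read 8.26 in nilotinib line 1 and 7.14 in line 2, a difference of -1.13 ± 0.17 (adjusted p = 1.88e-06). STAT5B and JAK2 were picked after their values were seen. Of the 8 JAK and STAT genes measured of 11 listed, 0 were called against naive over all lines (median 0.12). At an unadjusted p under 0.05 there were 3, against 29.8% of all genes. STAT3 had the smallest adjusted p at 0.45 ± 0.15 (adjusted p = 0.107).

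Among receptors that signal through STAT5, 10 of 17 were measured and 1 fell over all lines, while 3.72% of all genes were called in either direction. IL9R, the interleukin-9 receptor chain, fell by 1.30 ± 0.17 (adjusted p = 0.0313; with nilotinib alone adjusted p = 0.0485), with 8.13 and 7.89 in the naive sets and 6.54 to 7.23 in the lines. KIT, the stem cell factor receptor that both drugs also inhibit, stood at -2.27 ± 1.04 (adjusted p = 0.192). KIT read 9.24 in nilotinib line 1 and 5.05 in line 2, the same order as PIM1, CISH and SOCS2. The list median was -0.27. Of all calls of this comparison, 0 were left in limma without naive S, without low-imatinib line 1 or without low-imatinib line 2, and 2 without naive K. With any 1 set left out the difference stayed between -1.42 and -1.18 for IL9R.

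Negative regulators of the pathway had 6 of 20 listed genes measured, with 1 called higher over all lines and a median of 0.45. Of all genes, 3.72% were called in either direction. SOCS4, a SOCS family member not counted among the classical STAT5 targets, rose by 1.05 ± 0.19 (adjusted p = 0.0399), from 6.65 and 6.75 in the naive sets to between 7.49 and 8.21 in the lines. With any 1 set left out its difference stayed between 0.93 and 1.17, but the loss of calls with some sets left out, given above, covers SOCS4 too. In the 4 imatinib lines SOCS4 lay above both naive sets, while CISH and SOCS2 lay below both. For oncostatin M receptors and relatives, 5 of 8 were measured and 0 called (median 0.02). At an unadjusted p under 0.05 there was 1, against 29.8% of all genes. CTF1, a cytokine of the family, stood at 0.41 ± 0.17 (adjusted p = 0.160).

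Adaptors of the fusion kinase had 8 of 13 measured, 0 called (2 at an unadjusted p under 0.05, against 29.8% of all genes) and a median of 0.30. GRB2, which links the kinase to RAS, stood at 0.54 ± 0.11 (adjusted p = 0.0513), STAP1 at -2.06 ± 1.22 (adjusted p = 0.283) and BCR at 0.29 ± 0.29 (adjusted p = 0.506). GAB2 read 7.24 and 6.96 in the naive sets, 5.05 in nilotinib line 2 and 7.24 in line 1, close to the order of PIM1. Substrates and effectors of PIM kinases had 11 of 14 measured, 0 called (4 at an unadjusted p under 0.05, against 29.8% of all genes) and a median of 0.32. AKT1S1, a regulator of mTORC1, was the nearest to the threshold at 1.00 ± 0.21 (adjusted p = 0.0520).

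Markers of other cells also differed between the nilotinib lines. Of the 6 measured, 3 were higher (LYZ, EPCAM and PECAM1) and 0 lower in line 2 (11.5% and 16.1% of all genes). LYZ read 6.57 and 8.35 and EPCAM 5.97 and 8.59 in lines 1 and 2. In naive S and K, LYZ read 7.55 and 7.95 and EPCAM 8.40 and 8.56, so EPCAM in line 2 was near its naive level. CD14, MPO and PECAM1 were in the dimmest 40%. Of the 4 K-562 genes 1 was higher and 1 lower in line 2. Over all lines 1 of the 4 was called against naive by limma, TAL1, an erythroid transcription factor, at 1.12 ± 0.19 (adjusted p = 0.0380). Of all genes, 3.72% were called in either direction. With any 1 set left out the TAL1 difference stayed between 1.01 and 1.23, but the loss of calls with some sets left out, given above, covers TAL1 too. The part of these markers in the levels of PIM1, CISH and SOCS2 was not tested.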

How the data were processed

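Gene expression was measured on 32 one-colour arrays of K-562 cells, with 100 ng RNA per array. The authors deposited summarised intensities per feature that read as log2 values; the base is inferred from their range. Transcriptome Analysis Console 4.0 is named per the submitters' processing notes, and no source used here states the normalization. Of 53617 features, 16098 carried 1 symbol and 37519 were unnamed here. A gene with several features (779 genes) was represented by the one with the highest mean, which left 14884 genes.

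The 4 technical arrays of a set were averaged, and the 8 resulting means went into limma 3.58.1 in R 4.3.3 (4 residual degrees of freedom; 7 comparisons). Sets of 1 group were compared over 32 arrays (24 degrees of freedom; 4 comparisons). P-values were adjusted by Benjamini-Hochberg over all genes of a comparison, with a threshold of 0.05, and the code was checked on data with known differences. Errors are standard errors; precision is limited by the number of lines and naive sets, and within a group by the number of arrays.

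The 6 genes and 10 further lists (1 is not reported here) were chosen with earlier results of these data known. Listed genes named are those past the threshold, with the smallest adjusted p or with the largest difference over all lines, and, for genes whose set means span at least 1, the 3 most correlated genes; others are marked as picked later or given as markers. Alternatives were quantile or median scaling, feature and dimness filters, the groups in the fit, the block, medians, the technical axis and left-out sets or arrays.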

Additional observations from a re-analysis of the deposited data

Results flagged for a closer look

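In 56 sets of 4 arrays (7 features in 8 sets), 2 held an array far from the other 3, both for PIM2: 9.44 in naive S and 9.79 in nilotinib line 1. Chance marks about 1 set in 20 in this way. For PIM2, CISH, SOCS2 and SOCS3, 1 line of a resistance had its set mean above both naive sets and the other below both. The difference of line 2 minus line 1 was 1.93 for PIM2 with high imatinib. With nilotinib it was -2.14 for PIM2, -2.40 for CISH, -1.58 for SOCS2 and -0.83 for SOCS3. These gaps were tested against technical spread only, and a gap between cultures was not tested, since each line is 1 culture. With the technical axis taken out, nilotinib line 1 lay below naive S for CISH (8.49 against 8.65) and SOCS2 (7.71 against 7.74). For PIM2, high-imatinib line 2 then lay below naive S (9.33 against 9.38), and nilotinib line 1 was level with it (9.39). SOCS3 in nilotinib line 1 stayed above both naive sets (6.98 against 6.70 and 6.75).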

How the results depend on the processing

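The count under alternatives covers 19 differences from naive of the 6 genes. It leaves out SOCS3 with each single resistance and OSM with either imatinib dose. Each difference was counted once under each alternative that gave it. In 272 of these cases it kept its direction and its side of the threshold, in 11 it came to pass and in 13 it turned sign. With all 32 arrays in limma and sets as random blocks, which counts technical arrays as partly independent, calls were made for PIM1, CISH and SOCS2 over all lines (3 genes, at -2.37, -0.90 and -0.73) and with high imatinib (3 genes, at -2.36, -1.32 and -1.09), and PIM1 (1 gene) with low imatinib at -2.56 and with nilotinib at -2.18. Of 14884 genes, the fit with random blocks called 3660 over all lines, 1679 with high imatinib, 2672 with low imatinib and 3696 with nilotinib. Fitting only the groups compared called PIM1 (1 gene) with low imatinib at -2.56, and the share of all genes called in that fit is not given here. Median-centred arrays gave SOCS3 0.0043 over all lines. The technical axis taken out gave OSM 0.19 over all lines and 0.0596 with nilotinib.

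Leaving out 1 set in turn, the difference over all lines ran from -2.86 to -1.87 for PIM1, from -0.65 to 0.0614 for PIM2 and from -0.26 to 0.0213 for SOCS3. PIM2 ran from -0.64 to 0.0363 with low imatinib, from -1.35 to 0.58 with high imatinib and from -1.27 to 0.87 with nilotinib. With nilotinib, PIM1 ran from -3.66 to -0.70, CISH from -1.90 to 0.50 and SOCS2 from -1.36 to 0.22. Leaving out 1 array number, between 2 and 5 of the 6 genes differed between the high-imatinib lines. Counted in the same way, differences between lines or naive sets kept their call in 89 cases and lost it in 9. All 9 were of PIM1, CISH or SOCS3 with imatinib, the PIM1 one with high imatinib also with median-centred arrays (-0.29, limma adjusted p = 0.0594).

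Over all genes, calls ran from 0 (without naive S) to 3660 (random block) around 553 for all lines, from 0 to 2672 for low imatinib, from 0 to 1679 for high imatinib and from 0 to 3696 around 66 for nilotinib. The line number is shared between resistances without a stated pairing, and same-numbered lines deviated together at r = 0.139, 0.188 and -0.201. With it as a replicate block the 3 comparisons between resistances had 0 calls among the 6 genes and 0 among all genes, the same as without the block. The causes of these shifts were not tested. With 2 lines per resistance and no detection calls used here, small differences and dim features such as OSM are weakly resolved.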
